A study of Bos taurus with 3 samples.

Results

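HOX genes encode homeobox transcription factors, and the 39 of them in 4 clusters are described here across stromal cell cultures from 3 tissues of a cow. Members were all genes whose symbol joined HOX, a cluster letter from A to D and a number, which took 39 of the 21861 genes listed: 11 in HOXA, 10 in HOXB, 9 in HOXC and 9 in HOXD. Their choice used no measured value. The number, called the paralogue number, gives a gene's place in its cluster and is shared by the related genes of the other clusters.

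In the embryo, HOX genes of low number are switched on towards the head end and early, and those of high number towards the tail end and late. The highest numbers of HOXA and HOXD also pattern the limb from its base to its tip. Fibroblasts and mesenchymal stromal cells keep much of the HOX pattern of their site in the adult and in culture, while HOX proteins bind DNA together with cofactors of the PBX, MEIS and PKNOX families.

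Primary mesenchymal stromal cells, which are plastic-adherent cells of connective tissue, were cultured from 3 sources in 1 healthy Holstein-Frisian cow in its first lactation: fat (adipose), marrow (bone marrow) and circulating (peripheral) blood. All 3 groups were wild type and untreated, shared this donor, and grew until colonies could be seen in DMEM of low glucose content to which 30% FBS, P/S and L-glutamine had been added. Each tissue gave 1 single-cell RNA library, so no tissue has a replicate, no test of tissue was possible, and every interval below covers counting error only. The labels used here do not name the place on the body from which each tissue was taken.

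The kept cells numbered 6088 in adipose, 9281 in bone marrow and 3192 in blood, with 94838893, 98772664 and 89171113 unique molecular identifiers (UMIs, each standing for 1 captured transcript). The median was 14391 UMIs per cell in adipose, 9096 in bone marrow and 24884 in blood. Of 16 stromal markers, 12, 11 and 12 reached 50 CPM (UMIs of a gene scaled to a library size of 1000000 UMIs) in the same order, and collagen genes were among them in each library. Of 16 macrophage markers, 0 reached that level in adipose, 5 in bone marrow and 1 in blood, and their summed level was 14.96, 706 and 225 CPM. Cells with at least 1% of their UMIs from those markers, called macrophage-marked below, numbered 0, 424 and 31. Endothelial markers summed to 23.8, 6.04 and 4.19 CPM. Between 4 and 10 cell barcodes were shared by any 2 libraries.

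HOX genes made up a larger share of UMIs in adipose than in the other cultures, and the 3 cultures differed in which clusters and numbers supplied them. Before depth was made equal, the median cell held 7 HOX UMIs in adipose, 2 in bone marrow and 8 in blood. The 39 genes summed to 499.5 CPM in adipose, 249 in bone marrow and 317 in blood. HOXC supplied the most in adipose (41.3% of HOX UMIs), followed by HOXB (33.4%) and HOXA (22.6%). In bone marrow HOXA supplied 63.9%, HOXC 27.3% and HOXB 2.88%. In blood HOXA supplied 45.3%, HOXB 30.3% and HOXC 21.2%. HOXD was the smallest cluster in adipose and blood, at 2.64% and 3.31%, and stood at 5.95% in bone marrow.

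**Figure D1:**
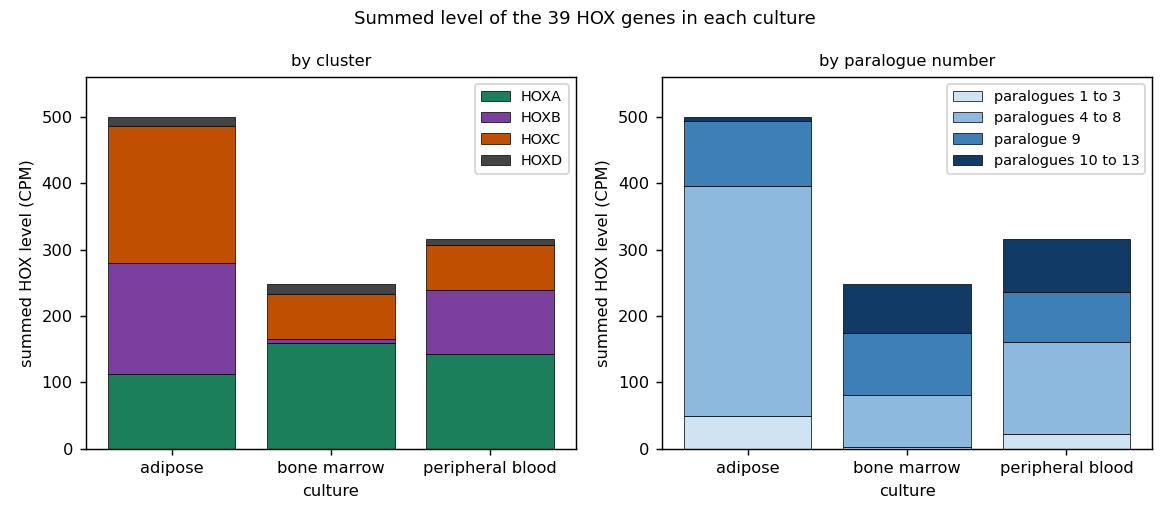
Summed level of the 39 HOX genes (CPM, vertical axis) in the 3 cultures (horizontal axis), stacked by cluster on the left and by paralogue number on the right. HOXB is a thin band in bone marrow (7.16 CPM), and numbers 10 to 13 are a thin band in adipose (5.39 CPM).

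Numbers 10 to 13, the tail-end group, were the least abundant in adipose. They summed to 5.39 CPM there, 73.8 in bone marrow and 81.0 in blood. Bone marrow was 13.7-fold above adipose (12.5 to 15.02) and blood 15.03-fold (13.7 to 16.5), while blood was 1.10-fold above bone marrow (1.06 to 1.13). Numbers 4 to 8 went the other way, with 347 CPM in adipose, 79.0 in bone marrow and 137.5 in blood. Number 9 lay between, at 97.4, 93.7 and 75.6 CPM.

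The order of the cultures turned near number 9: HOXC9 was still higher in adipose than in the other cultures, HOXA9 was already lower, and HOXD9 was even between adipose and bone marrow (adipose over bone marrow 0.967, 0.848 to 1.10). Of the 27 members numbered 1 to 9, 23 were highest in adipose and 2 in bone marrow (HOXA9 and HOXD9), and the other 2 had at most 1 UMI in any library (HOXB1 and HOXD1). Of the 12 members numbered 10 to 13, 0 were highest in adipose, 4 were highest in bone marrow and 6 in blood, and 2 had no UMI (HOXB13 and HOXD12). HOXB has no genes between numbers 9 and 13, so it shows no such turn. Over the 35 members with more than 3 UMIs in either library of a pair, with a value of 0 set to 3 counts, the median log2 ratio was 0.95 for adipose over bone marrow, 0.89 for adipose over blood and -0.22 for bone marrow over blood. Over all genes that reached 10 CPM in the pair, 7324, 7283 and 7369 in number, it was 0.09, 0.09 and 0.01.

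**Figure D2:**
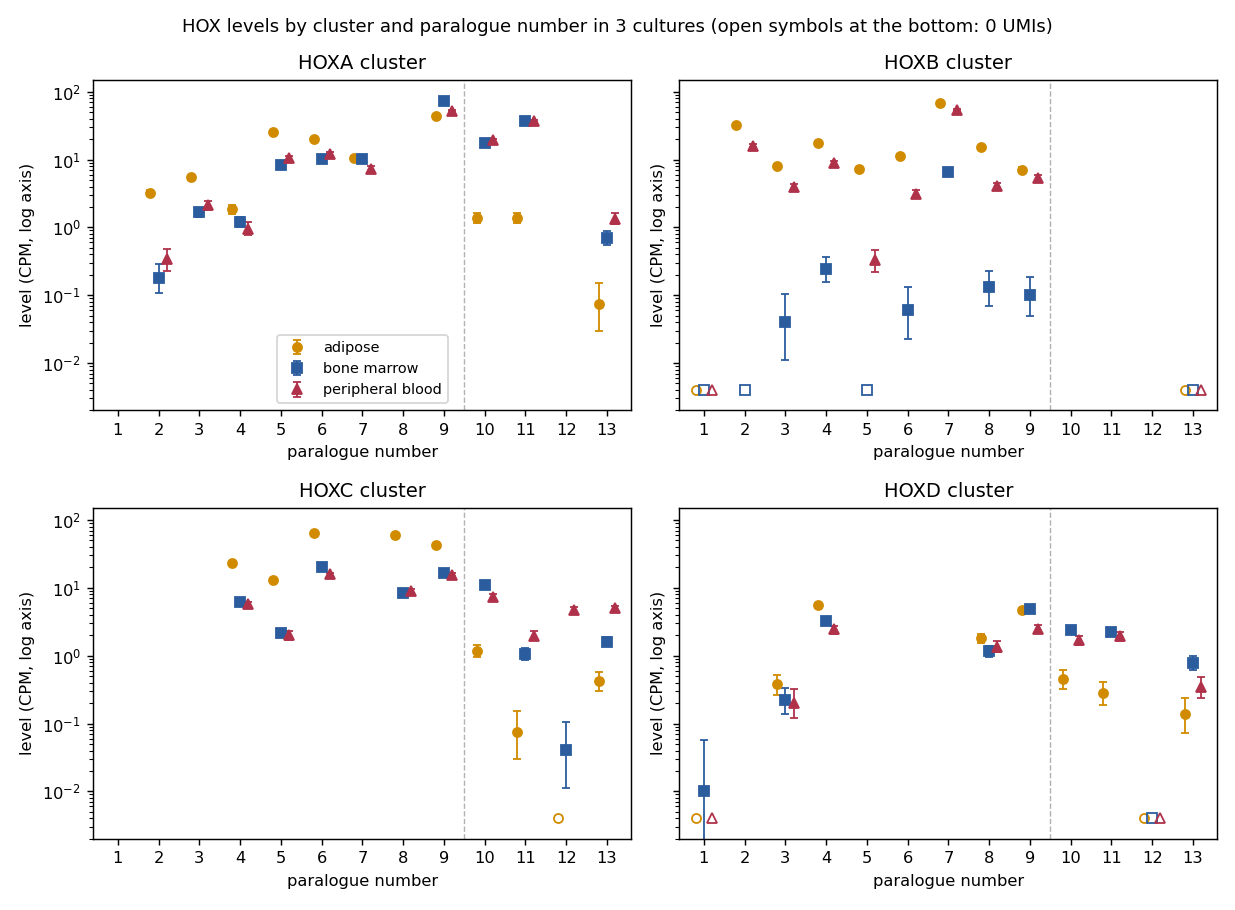
Level of the HOX genes described (CPM, log axis) against its paralogue number, 1 panel per cluster, with circles for adipose, squares for bone marrow and triangles for blood; bars are exact 95% Poisson intervals and open symbols mark 0 UMIs. Left of the dashed line between 9 and 10 adipose is mostly the highest, and right of it adipose is the lowest.

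A gene was counted as apart in a pair of cultures when its CPM values differed by 2-fold or more and the greater of them reached 10 CPM. That minimum was reached by 17 of the 39 members in at least 1 library. Between adipose and bone marrow 14 of the 17 that passed in that pair were apart, beside 8.47% of all genes past the minimum: 11 were higher in adipose, beside 3.17%, and 3 in bone marrow (HOXA10, HOXA11 and HOXC10), beside 5.3%. Between adipose and blood 12 of 16 were apart, beside 6.29%: 10 were higher in adipose, beside 1.62%, and 2 in blood (HOXA10 and HOXA11), beside 4.67%. Between bone marrow and blood 2 of 11 were apart, beside 8.2%: 0 were higher in bone marrow, beside 4.04%, and 2 in blood (HOXB2 and HOXB7), beside 4.15%.

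Members passed the minimum mostly through the culture where they were high, so these counts describe the abundant members and not all 39. At 50 CPM, 4 members passed in adipose and bone marrow and 3 were apart (HOXB7, HOXC6 and HOXC8), beside 6.9% of all genes, all 3 higher in adipose (beside 2.55%) and 0 in bone marrow (4.35%). Of 4 in adipose and blood 2 were apart (5.03%), both higher in adipose (1.2%) and 0 in blood (3.83%), and of 2 in bone marrow and blood 1 was apart (7.76%), HOXB7, higher in blood (3.9%), with 0 in bone marrow (3.86%). At 1 CPM, 23 of 30 members were apart between adipose and bone marrow (13.8% of all genes), 16 higher in adipose (5.05%) and 7 in bone marrow (8.74%). Of 32 members 24 were apart between adipose and blood (10.7%), 15 higher in adipose (3.27%) and 9 in blood (7.41%). Of 30 members 9 were apart between bone marrow and blood (12.4%), 0 higher in bone marrow (6.66%) and 9 in blood (5.75%).

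The HOXA genes split by number. HOXA5, which acts in the lung, neck and upper trunk, stood at 25.6 CPM in adipose, 8.25 in bone marrow and 10.4 in blood. It was highest in adipose, 3.11-fold above bone marrow (2.87 to 3.37) and 2.47-fold above blood (2.29 to 2.66). HOXA6 ran the same way at 19.98, 10.35 and 12.03 CPM, within 2-fold in each pair. HOXA7 stood at 10.5, 10.3 and 7.35 CPM, and its adipose and bone marrow values did not differ beyond counting error (ratio 1.02, 0.937 to 1.12).

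HOXA9, a gene of the posterior trunk that is also active in blood progenitors, was the leading member of bone marrow. Its level was 43.1 CPM in adipose, 72.3 in bone marrow and 52.1 in blood. Bone marrow was highest, at 1.68-fold the adipose level (1.61 to 1.74) and 1.39-fold the blood level (1.34 to 1.44).

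HOXA10 and HOXA11, which pattern the limb and the reproductive tract, marked bone marrow and blood off from adipose. HOXA10 stood at 1.38 CPM in adipose, 17.5 in bone marrow and 19.2 in blood. HOXA11 stood at 1.38, 36.4 and 37.5 CPM. Both genes were low in adipose alone: HOXA11 was 26.4-fold higher in bone marrow (22.1 to 31.6) and 27.1-fold higher in blood (22.8 to 32.6), and HOXA10 was 12.7-fold and 13.9-fold higher. Bone marrow and blood did not differ beyond counting error in HOXA11 (blood over bone marrow 1.03, 0.982 to 1.08). HOXA13, the gene of the hand, foot and hindmost body, was scarce throughout, at 0.0738, 0.699 and 1.35 CPM.

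The low-numbered HOXA genes described here were minor. HOXA2, which patterns the hindbrain and the second pharyngeal arch, stood at 3.22 CPM in adipose, 0.182 in bone marrow and 0.336 in blood, a 17.6-fold difference between adipose and bone marrow (10.98 to 30.2). HOXA3 stood at 5.50, 1.68 and 2.11 CPM and HOXA4 at 1.84, 1.21 and 0.953.

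HOXB was the cluster that set bone marrow apart. Its 10 genes summed to 167 CPM in adipose, 7.16 in bone marrow and 95.9 in blood, so adipose was 23.3-fold above bone marrow (21.6 to 25.2), blood 13.4-fold above it (12.4 to 14.5), and adipose 1.74-fold above blood (1.70 to 1.79). All 8 members with UMIs were lowest in bone marrow.

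HOXB7, a trunk gene, was the most abundant member in adipose and ranked first in blood. In blood its interval (52.6 to 55.7 CPM) overlapped that of HOXA9 (50.6 to 53.6 CPM). It stood at 68.6 CPM in adipose, 6.58 in bone marrow and 54.1 in blood. Bone marrow alone was low, 8.23-fold under blood (7.58 to 8.94), and HOXB7 still made up 650 of the 707 HOXB UMIs of that library.

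HOXB2, a hindbrain gene, gave the plainest on and off pattern. It had 3055 UMIs in adipose, 0 in bone marrow and 1429 in blood, which are 32.2, 0 and 16.0 CPM. With 3 counts set in place of 0 in the bone marrow library, adipose was 1061-fold and blood 528-fold higher. The exact interval of 0 UMIs reaches 0.0374 CPM in that library, above those 3 counts (0.0304 CPM), so these ratios are not lower limits. The ratio of adipose over bone marrow was 10.05 on the log2 scale. It was 8.75 among cells with a low share of cell-cycle UMIs and 9.25 among cells of at least 10000 UMIs, sets that hold fewer cells and so a higher floor.

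Other HOXB genes followed HOXB2 with larger gaps between adipose and blood for some. HOXB4 stood at 17.7 CPM in adipose, 0.243 in bone marrow and 8.86 in blood. HOXB6 stood at 11.2, 0.0608 and 3.14 CPM, and HOXB8 at 15.1, 0.132 and 4.07 CPM. Adipose exceeded blood by 3.56-fold (3.12 to 4.08) for HOXB6, 3.72-fold (3.31 to 4.18) for HOXB8 and 2.002-fold (1.84 to 2.18) for HOXB4. HOXB4 and HOXB2 (2.01-fold) were at the edge of the 2-fold rule in that pair, and neither was apart after scaling by TMM factors, where their log2 ratios were 0.94 and 0.94. Adipose over bone marrow was 6.19 on the log2 scale for HOXB4 and 6.85 for HOXB8, and among cells with a low share of cell-cycle UMIs 5.36 and 5.93. HOXA6 was just under the 2-fold rule between adipose and bone marrow (1.93-fold).

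HOXB5 behaved unlike its neighbours in blood. It stood at 7.15 CPM in adipose, 0 in bone marrow and 0.325 in blood, so blood was 22.0-fold under adipose (15.2 to 33.1), while the neighbouring HOXB4 and HOXB6 were 2.002-fold and 3.56-fold under. HOXB9 stood at 7.11, 0.101 and 5.43 CPM, with adipose 1.31-fold above blood (1.16 to 1.48). HOXB3 stood at 7.95, 0.0405 and 3.96 CPM. In RefSeq annotation, taken from the ARS-UCD2.0 assembly and not the one of the files, HOXB3 overlaps HOXB4, HOXB5 and HOXB6, and HOXB8 overlaps HOXB9, so counts of these genes are uncertain where reads could be given to either.

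The HOXC genes of the trunk were an adipose group. HOXC6 stood at 64.9 CPM in adipose, 20.6 in bone marrow and 15.8 in blood. HOXC8 stood at 60.9 CPM in adipose, 8.50 in bone marrow and 8.90 in blood. Both were highest in adipose: HOXC8 by 7.17-fold over bone marrow (6.67 to 7.71) and 6.85-fold over blood (6.35 to 7.38), and HOXC6 by 3.15-fold and 4.10-fold. HOXC8 did not differ between bone marrow and blood beyond counting error (blood over bone marrow 1.05, 0.949 to 1.16).

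HOXC4, HOXC5 and HOXC9 showed the same order. HOXC4 stood at 23.2, 6.29 and 5.72 CPM, HOXC5 at 13.2, 2.14 and 2.01 CPM, and HOXC9 at 42.6, 16.5 and 15.5 CPM. None of these 3 differed between bone marrow and blood beyond counting error, with ratios from 1.06 to 1.10 whose intervals include 1.

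At HOXC10 the order changed. HOXC10, a gene of the lumbar trunk and hindlimb, stood at 1.18 CPM in adipose, 11.2 in bone marrow and 7.41 in blood. Bone marrow was 9.45-fold above adipose (7.77 to 11.6) and 1.51-fold above blood (1.37 to 1.66). HOXC11 stood at 0.0738, 1.06 and 1.96 CPM.

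The last 2 HOXC genes were raised in blood. HOXC12 had 0 UMIs in adipose, 4 in bone marrow and 416 in blood (4.67 CPM), a 115-fold difference between blood and bone marrow (44.7 to 425). HOXC13, known for its part in hair and nail, stood at 0.422, 1.61 and 4.97 CPM, with blood 3.09-fold above bone marrow (2.57 to 3.72) and 11.8-fold above adipose (8.51 to 16.7). Outside HOXB, HOXC12 had the largest ratio of any member between bone marrow and blood.

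HOXD was low in every culture, and none of its 9 genes reached 10 CPM. HOXD4 stood at 5.50, 3.22 and 2.43 CPM, HOXD8 at 1.79, 1.16 and 1.36 CPM and HOXD9 at 4.65, 4.81 and 2.51 CPM. HOXD10, a gene of the lumbar trunk and limb, stood at 0.453, 2.39 and 1.68 CPM, and HOXD11 at 0.285, 2.21 and 1.94 CPM. Numbers 10 and 11 were again lowest in adipose, 5.27-fold under bone marrow for HOXD10 (3.79 to 7.47) and 7.75-fold for HOXD11 (5.18 to 12.03). HOXD13 stood at 0.137, 0.780 and 0.348 CPM. HOXD3 had 36, 22 and 18 UMIs. HOXD10 and HOXD11 overlap in the RefSeq table, as do HOXD3 and HOXD4 and, in HOXA, HOXA3 with HOXA4 and HOXA5, and HOXA5 with HOXA6.

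**Figure D3:**
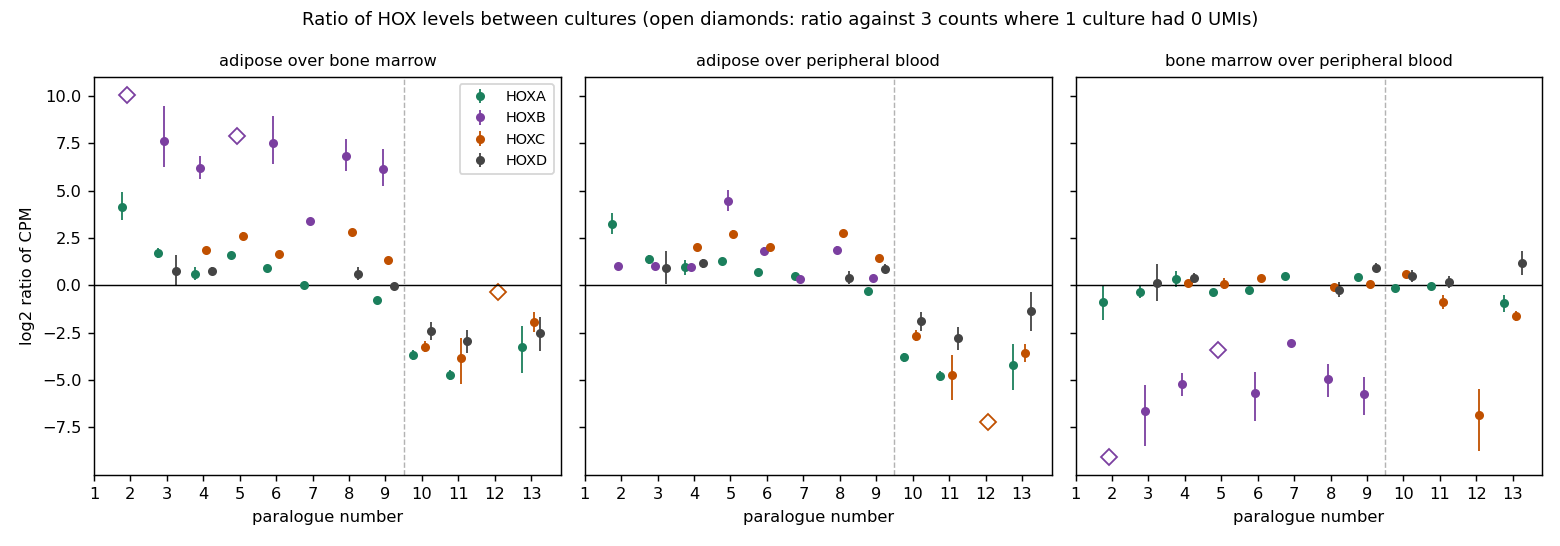
Log2 ratio of CPM between cultures (vertical axis) against paralogue number (horizontal axis) for adipose over bone marrow, adipose over blood and bone marrow over blood; colours mark the cluster, bars are exact 95% intervals, and open diamonds are ratios against 3 counts. The values fall below 0 past number 9 in the adipose panels, and HOXB stands apart in the panels with bone marrow.

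Shares of cells followed the levels for HOXB7, HOXA9, HOXA11 and HOXC8 once depth was made equal. Each cell was thinned at random to 4000 UMIs, and a cell counted where it kept a UMI of the gene. HOXB7 was found in 22.6% of cells in adipose, 2.36% in bone marrow and 18.6% in blood (59.7%, 6.45% and 69.5% without thinning). HOXA11 was found in 0.624%, 13.1% and 14.6% (1.97%, 29.8% and 57.2% without thinning). HOXC8 was found in 20.7%, 2.98% and 3.54% (56.6%, 8.33% and 20.6% without thinning). HOXB7 and HOXC8 marked adipose cells off from bone marrow cells, and HOXA11 did the reverse. HOXA9 was found in 15.6%, 23.6% and 17.9% (43.7%, 47.9% and 67.1% without thinning). At least 1 UMI of any of the 39 genes was found in 84.9% of cells in adipose, 59.4% in bone marrow and 68.8% in blood (99.2%, 83.5% and 97.7% without thinning).

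The macrophage-marked cells of bone marrow rarely held a HOXA UMI, but 4.48% of them (2.72 to 6.91) held a HOXB UMI, against 2.55% of the other cells. HOXA11 was found in 0 of the 424, with an exact interval up to 0.866%, against 13.7% of the other cells. HOXA9 was found in 0.472% against 24.7%. Their median depth before thinning was 6037 UMIs, against 9206 in the other cells. HOXB7 was found in 2.36% of both (1.14 to 4.29 in the marked cells), so its share in the other bone marrow cells did not exceed that in the marked cells. HOXB4 was found in 1.18% of marked cells and 0.0565% of the others, and HOXB8 in 0.708% and 0.0339%.

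Barcodes of 10 to 100 UMIs, which hold free RNA, had a different mix from the macrophage-marked cells. In bone marrow they held 77 HOXA9 UMIs and 8 of HOXB7, while the marked cells held 2 of HOXA9 and 16 of HOXB7. No test was run on this difference. In blood, the 31 marked cells gave 0 cells with a UMI of HOXB7 or HOXA9, with an exact interval up to 11.2%. The source of the HOXB UMIs in the marked cells was not tested.

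**Figure D4:**
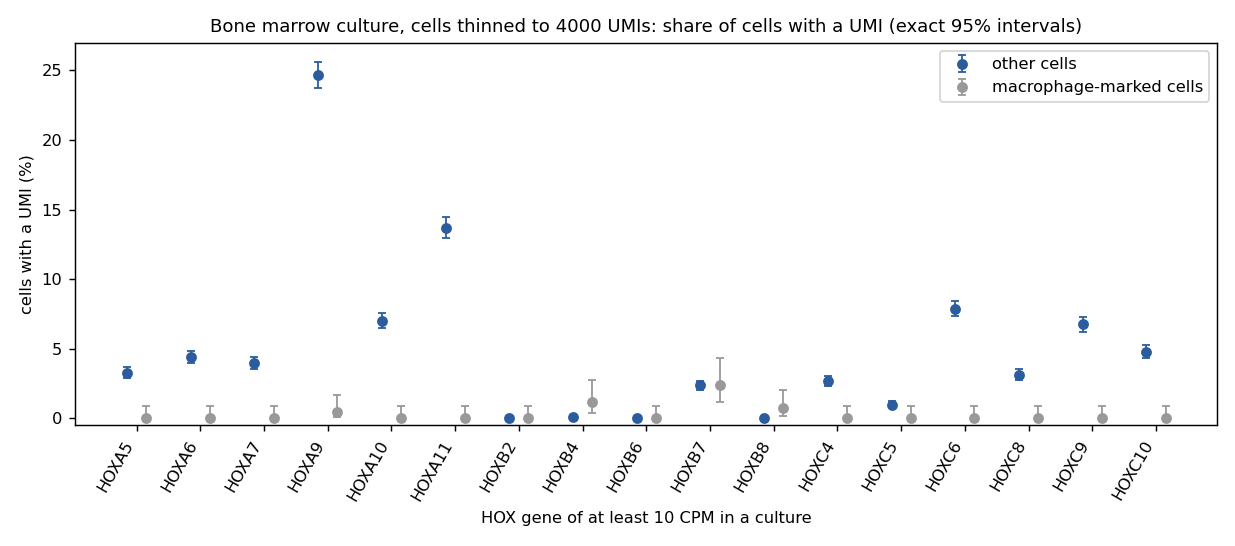
Share of bone marrow cells with a UMI (percent, vertical axis) for the 17 HOX genes of at least 10 CPM in any culture (horizontal axis), in macrophage-marked cells (grey) and other cells (blue), thinned to 4000 UMIs, with exact 95% intervals. HOXA9 reaches 24.7% of the other cells, and HOXB7 is at 2.36% in both groups.

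HOX levels also varied between the clusters of cells within a culture. Cells of each library were clustered without the HOX genes, and clusters of at least 100 cells without macrophage markers among their leading genes were compared for members of at least 100 UMIs. There were 4 such clusters in adipose, 5 in bone marrow and 7 in blood, and a range over more clusters tends to be wider, so the 3 counts are not ranked. The highest and lowest cluster were at least 2-fold apart for 1 of 26 members in adipose (HOXA2), 4 of 22 in bone marrow (HOXA3, HOXD8, HOXD9 and HOXD10) and 18 of 29 in blood. Some of the blood ranges rest on few UMIs in the lowest cluster, such as 3 for HOXC11 and 10 for HOXA13. The counts for adipose and bone marrow depended on the clustering: at the finer resolution of 1.0 the 3 counts were 12, 11 and 24. No share of all genes by this rule is given here. The counts therefore do not show whether HOX genes varied more between clusters than other genes. HOXC8 ranged 1.26-fold between adipose clusters, 1.92-fold between bone marrow clusters and 7.10-fold between blood clusters.

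HOXB7, HOXA9 and HOXA11 were at similar levels in each blood cluster. HOXB7 lay between 51.8 and 62.2 CPM, HOXA9 between 42.0 and 63.4 and HOXA11 between 29.2 and 43.3 in the 7 clusters compared. HOXB as a whole lay between 90.2 and 105.0 CPM. The highest HOXA genes were found about as often in blood cells with a HOXB UMI as in those without. This was counted over 3036 blood cells, with the cluster that had macrophage markers left out. At 4000 UMIs, a UMI of HOXA10, HOXA11 or HOXA13 was present in 21.4% (18.8 to 24.2) of these cells with a HOXB UMI. It was present in 20.8% (19.1 to 22.6) of those without. At 6000 UMIs the shares were 26.4% (24.0 to 28.8) and 29.1% (26.9 to 31.3).

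A blood cluster of 493 cells, led by MEOX1, SYCP3 and ALDH1A1, differed in HOXC and HOXD. HOXD10 stood at 7.78 CPM (6.26 to 9.55) and HOXD11 at 8.89 CPM (7.26 to 10.8) there, against at most 0.970 and 1.51 CPM in the other 6 clusters compared. HOXC6 stood at 5.21 CPM and HOXC8 at 1.97 CPM, low beside the highest clusters at 23.8 and 13.9. At resolution 1.0 this cluster split into groups of 245 and 239 cells that had HOXD11 at 8.65 and 9.77 CPM and HOXC8 at 1.85 and 1.83 CPM.

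Another blood cluster, of 345 cells led by LRRN4CL, ITGA6 and TIMP3, was also low in HOXC6 (5.78 CPM) and HOXC8 (2.27 CPM) but not high in HOXD. HOXD10 stood at 0.516 CPM and HOXD9 at 0.722, the latter the lowest of the clusters compared, where the highest was 4.18. HOXA5 was at its highest there, 21.9 CPM (19.0 to 25.0), against 15.04 in the MEOX1 cluster and 5.82 in the lowest. HOXC12 was highest in a cluster of 132 cells led by CCN3 and RGCC, at 11.8 CPM.

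**Figure D5:**
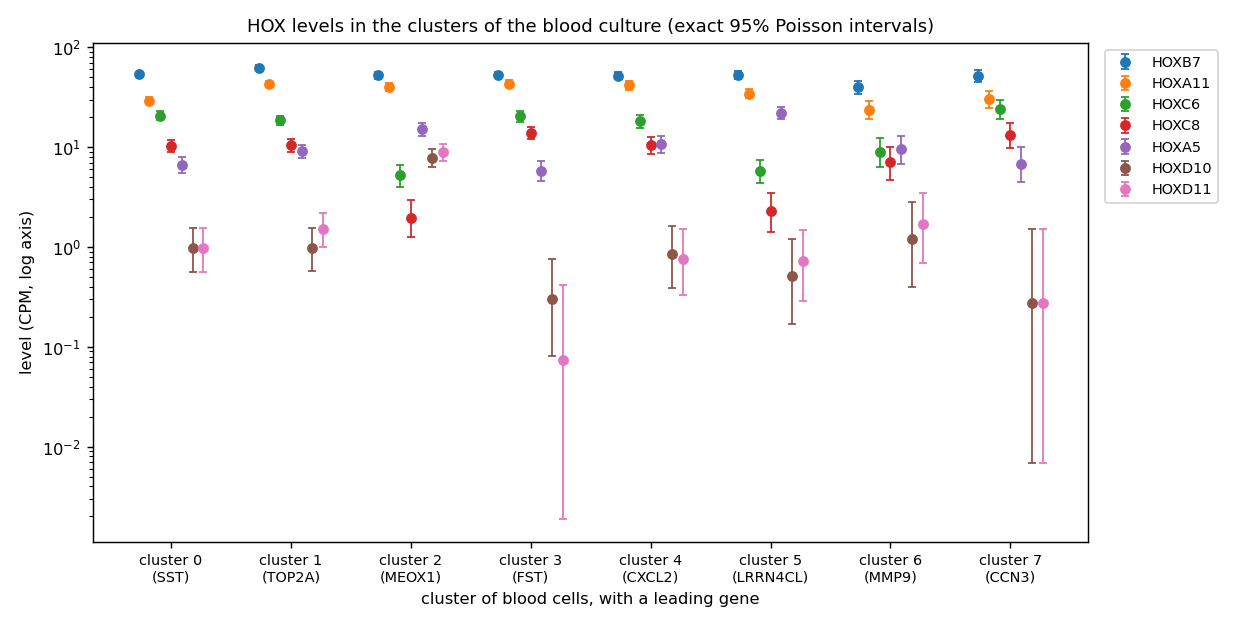
Level (CPM, log axis) of 7 HOX genes in the 8 clusters of blood cells, each named by a leading gene, with exact 95% Poisson intervals. HOXB7 and HOXA11 are near level across the clusters without macrophage markers, HOXC6 and HOXC8 dip in the MEOX1 and LRRN4CL clusters, and HOXD10 and HOXD11 rise in the MEOX1 cluster.

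The cells richest in macrophage genes carried little HOX RNA. In bone marrow, a macrophage-like cluster of 514 cells led by FABP4 and LYZ had 51 HOX UMIs, or 14.8 CPM, of which 38 were HOXB, while the 5 clusters without macrophage markers stood between 221.5 and 319 CPM. A further bone marrow cluster of 466 cells, with macrophage and stromal genes together, stood at 188 CPM. In blood, a cluster of 156 cells with macrophage genes stood at 228 CPM, and at resolution 1.0 most of it fell into 83 cells at 285 CPM and 75 cells at 14.6 CPM. Doublets were not called, and their part in the mixed clusters was not tested.

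In adipose, 39 endothelial-like cells led by SELE, FABP5 and FABP4 differed from the other adipose cells in HOXC and HOXD. HOXD10 had 15 UMIs in 15 of the 39 cells, or 34.3 CPM (19.2 to 56.6), against 0.297 CPM in the rest of the library. HOXD9 stood at 20.6 CPM against 4.58, and HOXA9 at 84.6 against 42.9. HOXC8 stood at 13.7 CPM against 61.2 and HOXC6 at 20.6 against 65.1. These cells held 15 of the 43 HOXD10 UMIs of the adipose library.

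Among genes that work with or near the clusters, single ones were apart. Of 9 HOX cofactor genes, 3, 3 and 2 passed 10 CPM in the adipose and bone marrow, adipose and blood, and bone marrow and blood pairs. MEIS2 alone was apart, in the first of these pairs, where 8.47% of all genes were. It stood at 29.9 CPM in adipose, 14.6 in bone marrow and 28.3 in blood. MEIS2 was at the edge of the 2-fold rule, with adipose 2.05-fold above bone marrow and a counting interval that includes 2 (1.93 to 2.19). Of 22 regulators of HOX chromatin, including EZH2 and SUZ12 of the Polycomb system and KMT2A, which keeps HOX genes active, 14 reached 10 CPM in at least 1 library and 0 were apart in any pair, where between 6.29% and 8.47% of all genes were. Of 15 neighbours of the clusters and upstream factors, 4 passed the minimum in each pair, and SNX10 alone was apart, in all 3 pairs (beside 8.47%, 6.29% and 8.2% of all genes), at 15.7, 35.3 and 4.96 CPM. MTX2, next to HOXD, was level at 54.7, 54.6 and 53.5 CPM.

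Of 14 retinoic acid genes, which act upstream of HOX in the embryo, 7, 7 and 6 passed the minimum in the same pairs. Between adipose and bone marrow 4 were apart, beside 8.47% of all genes, between adipose and blood 3, beside 6.29%, and between bone marrow and blood 1, beside 8.2%. ALDH1A1, a retinaldehyde dehydrogenase, stood at 136 CPM in adipose, 29.7 in bone marrow and 43.8 in blood, and ALDH1A3 at 31.8, 5.41 and 17.4. The retinoic acid hydroxylase gene CYP26B1 stood at 13.3, 4.21 and 3.27 CPM, and the receptor gene RARG was lowest in adipose at 8.69, 27.2 and 23.0 CPM. The median log2 ratio of adipose over bone marrow was -0.01 over the 7 that passed the minimum.

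Other genes of body position also differed. Of 17 limb and trunk genes, EMX2 stood at 96.7, 3.92 and 49.98 CPM, which is the order of HOXB, and EN1 at 26.5, 1.73 and 5.87. TBX3 stood at 35.7, 13.7 and 6.63 CPM, PITX1, a hindlimb gene, at 3.65, 11.6 and 2.05, and HAND2 at 30.3, 19.4 and 0.101. The hindlimb gene TBX4 had 0 UMIs in all 3 libraries, and the forelimb gene TBX5 stood at 2.52, 0.405 and 0 CPM. Among genes of head mesenchyme, MSX1 was apart and higher in adipose than in bone marrow, at 32.2 against 13.2 CPM, and DLX5, BARX1 and SIX2 were apart and higher in bone marrow.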

How the data were processed

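The authors deposited raw UMI counts for every gene and barcode of 10x 3' version 3.1 libraries, per the labels' protocols. The submitters' processing notes name Cell Ranger 6.1.1 and the build ARS-UCD1.2, while the matrices carry version 4, per the file headers. The sources used here do not say how reads shared by overlapping genes were counted. A 3' tag count is not divided by length, and it depends on how well each gene's 3' end is annotated, so genes are ordered here only by captured UMIs.

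Barcodes with at least 4439 (adipose), 4415 (bone marrow) or 7489 (blood) UMIs were kept as cells. None had under 500 genes or over 20% mitochondrial UMIs, and doublets were not called. UMIs were summed per library and scaled to CPM with numpy 2.4.6 and scipy 1.17.1. Intervals are exact at 95%: Poisson for levels, conditional binomial for ratios, Clopper-Pearson for shares. A count of 0 was set to 3 counts per library for ratios. UMIs after amplification are counted molecules, and the intervals cover counting error only. Clusters came from scanpy 1.11.5 and leidenalg 0.10.2 (2000 variable genes, 30 components, 15 neighbours, resolution 0.5). A cluster was named from at least 3 markers of a cell type among its 50 leading genes. TMM factors came from edgeR 4.0.16.

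With 1 library per tissue there was no test. Every HOX gene is a member and counted, but values of some genes are not reported here. Full values go to those of at least 10 CPM in a library. Genes of other lists are named where they were apart in a pair, and MTX2, TBX4, TBX5, EZH2, SUZ12 and KMT2A were named after their values were seen, as were the genes followed through the clusters. The members, lists and rules were chosen with earlier results of these data known. On simulated counts for the 21861 genes, 200 of 200 genes changed 3-fold and 0 of 200 changed 1.5-fold were called in each of the 3 pairs. The changed genes were drawn only from the more abundant ones, and the counts held counting error alone. This outcome therefore follows from the 2-fold rule and does not check it for scarce members or for differences between libraries. The alternatives were other scalings, filters, thinning depths, cell selections and clusterings. No promoter or protein sequence was used here.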

Additional observations from a re-analysis of the deposited data

How the results depend on the processing

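No paired analysis was possible because the labels give no replicate numbers and each tissue has 1 library. Of 132 recomputed counts and spreads, 110 stayed within 1.5 times and 22 moved. Of 396 recomputed ratios of single members, 359 were counted as the same and 37 as moved. A ratio counted as the same where it stayed within its counting interval. Ratios set against 3 counts have no such interval and were judged by a fixed shift on the log2 scale. Among ratios of members that were apart, 0 changed direction. A change of direction was not counted for members that were not apart, some of which had ratios near 1. The filter on level moved the counts of members apart, since it sets how many genes are tested. With a minimum of 50 CPM, 3 members were higher in adipose and 0 in bone marrow, 2 were higher in adipose and 0 in blood, and 1 was higher in blood than in bone marrow. With a minimum of 1 CPM, 7 were higher in bone marrow and 9 in blood than in adipose, and 9 in blood than in bone marrow. With no filter, 17 were higher in adipose and 9 in bone marrow between those cultures, and 10 were higher in blood than in adipose. In the last pair 11 were then higher in blood and 1 in bone marrow. The share of all genes with no filter is not given here, so these counts have nothing to be set beside. Members found in at least 5% of cells numbered 11, 5 and 7 in adipose, bone marrow and blood at 4000 UMIs, 20, 12 and 25 without thinning, and 9 in bone marrow at 6000 UMIs. Members at least 2-fold apart between adipose clusters numbered 12 at resolution 1.0, 3 with HOX genes used in the clustering and 2 with another seed. In bone marrow they numbered 11 at resolution 1.0, and no share of all genes is given beside these cluster counts. In bone marrow cells with a low share of cell-cycle UMIs, 5 members reached 10 CPM, against 8 in all cells; the cause was not tested. Leaving out the clusters with macrophage markers, an alternative chosen after seeing the data, raised the log2 ratio of HOXB4 in adipose over bone marrow from 6.19 to 8.01.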
